A study of Mus musculus with 5 samples.

Results

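The classical MHC class II chains and the invariant chain are the structural genes of class II antigen presentation, and they were followed here as 5 genes: H2-Aa, H2-Ab1, H2-Eb1, H2-Eb2 and Cd74. Members were the rows of the deposited gene table with these symbols. All 5 of 5 were found among 27678 genes, and all 5 were among the 13813 genes with enough signal to test. Transcript levels were compared between 3 libraries from Etv3-/- mice and 2 libraries from Etv3+/+ mice, which served as controls. The product of Etv3 is an ETS-type transcription factor. In both genotypes the libraries came from dendritic cells sorted from 6-day bone marrow cultures that received GM-CSF (20 ng/ml) together with IL-4 (at 5 ng/ml), a cytokine pair under which myeloid progenitors become dendritic cells. Per the labels' protocols the sort kept live single cells with CD11c, much MHC class II, an intermediate level of CD11b and no CD115, and reached a purity above 95%. The gate therefore chose cells in both genotypes by the surface protein that the members encode. The sources used here do not state the strain or age of the mice or which part of the Etv3 locus was disrupted.

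In dendritic cells, an alpha and a beta chain pair in the endoplasmic reticulum and carry peptides to the cell surface for CD4 T cells. H2-Aa and H2-Ab1 encode the alpha and beta chain of the I-A molecule. H2-Eb1 encodes the beta chain of I-E, whose alpha chain comes from H2-Ea, and H2-Eb2 encodes a further beta chain. Cd74 encodes the invariant chain, a chaperone that fills the groove of new class II molecules and steers them to endosomes, where proteases remove it. Their promoters share a conserved module of X and Y boxes, bound by RFX, CREB and NF-Y proteins, on which the coactivator CIITA acts.

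The promoter sequences are shown because the module common to these genes can be read in them. RefSeq promoter windows on GRCm38.p6 matched 3 of the 5 members. No sequence is shown for H2-Ab1 or Cd74. Each line gives the 150 bases before the annotated transcript start, 5′ to 3′ on the strand of the gene. The windows are chr17:34287824-34287973 on the minus strand for H2-Aa, and chr17:34305717-34305866 and chr17:34325525-34325674 on the plus strand for H2-Eb1 and H2-Eb2. Capitals mark the Y box core CTGATTGG in all 3 sequences. In H2-Aa they also mark TGACGTCA, a cyclic AMP response element next to the place of the X box, and in H2-Eb1 and H2-Eb2 the X box core, taken as the longest run of letters that the windows of these genes share.
H2-Aa: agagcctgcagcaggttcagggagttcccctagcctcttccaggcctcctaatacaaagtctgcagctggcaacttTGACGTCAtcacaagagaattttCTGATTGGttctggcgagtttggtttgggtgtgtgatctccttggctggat
H2-Eb1: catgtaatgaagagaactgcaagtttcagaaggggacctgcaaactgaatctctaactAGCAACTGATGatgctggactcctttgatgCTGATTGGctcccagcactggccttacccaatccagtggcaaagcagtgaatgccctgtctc
H2-Eb2: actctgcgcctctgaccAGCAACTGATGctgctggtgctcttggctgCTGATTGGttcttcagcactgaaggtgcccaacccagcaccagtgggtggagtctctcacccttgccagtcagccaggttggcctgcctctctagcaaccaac

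The Y box core began 51 bases before the start in H2-Aa, 62 bases before it in H2-Eb1 and 103 bases before it in H2-Eb2. In both H2-Eb genes 19 bases lay between the X box core and the Y box core, and in H2-Aa 15 bases lay between the cyclic AMP response element and the Y box core. Searched on both strands in windows of 300 bases, from 250 before to 50 after a start, the Y box core was present in 4.10% of 32851 promoters, the cyclic AMP response element in 1.79% and the X box core in 0.0244%. No 2 of the 3 motifs overlapped in these sequences. The X box core was defined from the H2-Eb1 and H2-Eb2 windows, which are themselves among the 8 promoters that hold it. The motifs were chosen after the sequences had been read, and a match describes letters, not a bound site. Of the 5 genes of the accessory chains H2-DM and H2-O, the windows of H2-Oa alone held the Y box core, and those of 0 of 5 held either other motif in this exact spelling.

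The deposited values are read counts divided by a factor for each library and are called normalized counts below. Recovered depth was 48278316, 42983550 and 59694413 reads in Etv3-/- replicates 1, 2 and 3, against 56445754 and 68253936 in Etv3+/+ replicates 1 and 2. The Spearman correlation, across genes, of a library's log2 deviation with transcript GC content stood at 0.41 for Etv3-/- replicate 3 and at -0.43 for Etv3+/+ replicate 2, and at -0.11 to 0.09 for the other libraries. The members' transcripts have a GC content of 43.5% (H2-Eb2) to 57.3% (H2-Ab1). Mitochondrial transcripts took 1.10% to 3.17% of normalized counts in Etv3-/- and 1.98% and 6.64% in Etv3+/+. Etv3 itself had 18691, 20416 and 22856 normalized counts in Etv3-/-, against 23050 and 25447 in Etv3+/+ (log2 fold change -0.23, limma adjusted p = 0.567). A total over the gene does not check a knockout whose position is not given, and genotypes are as labelled.

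H2-Aa, H2-Ab1, H2-Eb1, H2-Eb2 and Cd74 all had higher normalized counts in every Etv3-/- library than in either Etv3+/+ library. None of the 5 passed the test over all genes, with H2-Eb1 closest to the threshold. H2-Aa, H2-Ab1 and H2-Eb1 were 2.37-fold to 2.99-fold higher on the fitted scale, and Cd74 and H2-Eb2 1.63-fold and 1.70-fold. The two-sided test was limma on log2(normalized count + 1), its p-values were adjusted over all genes tested by the Benjamini-Hochberg method, and an adjusted p under 0.05 passed. It called 0 of the 5 members, at adjusted p = 0.0542 to 0.394, while edgeR on recovered reads called 1 (H2-Eb1) and DESeq2 called 3 (H2-Aa, H2-Ab1 and H2-Eb1). Among all 13813 genes tested limma called 0.876% higher and 0.319% lower, which is 1.19% in either direction. Of the same genes, edgeR called 114 higher and 44 lower, and DESeq2 called many more, 644 and 544. Without adjustment, 3 of the 5 members had a limma p under 0.05 and a higher level in Etv3-/-, against 8.02% of all genes tested (18.0% in either direction). The genotypes did not overlap, with Etv3-/- higher, in 5 of 5 members, against 16.7% of all genes tested. The median log2 fold change was 1.24 over the members and -0.06 over all genes tested. Of all genes tested, 8.27% had a log2 fold change at or above that of H2-Aa. Among the 20 tested genes whose mean was at or above that of H2-Eb1, the genes that did were H2-Aa, H2-Ab1 and H2-Eb1 themselves, and the median was 0.27. Both cuts were members' own values, and the mean was taken over both genotypes, so the higher Etv3-/- counts helped members into this set. H2-Eb1 met the first cut and H2-Aa the second by construction, so this comparison is a description and no test. The members are neighbours in 1 locus apart from Cd74 and share their regulators, so they are not independent of each other.

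**Figure D1:**
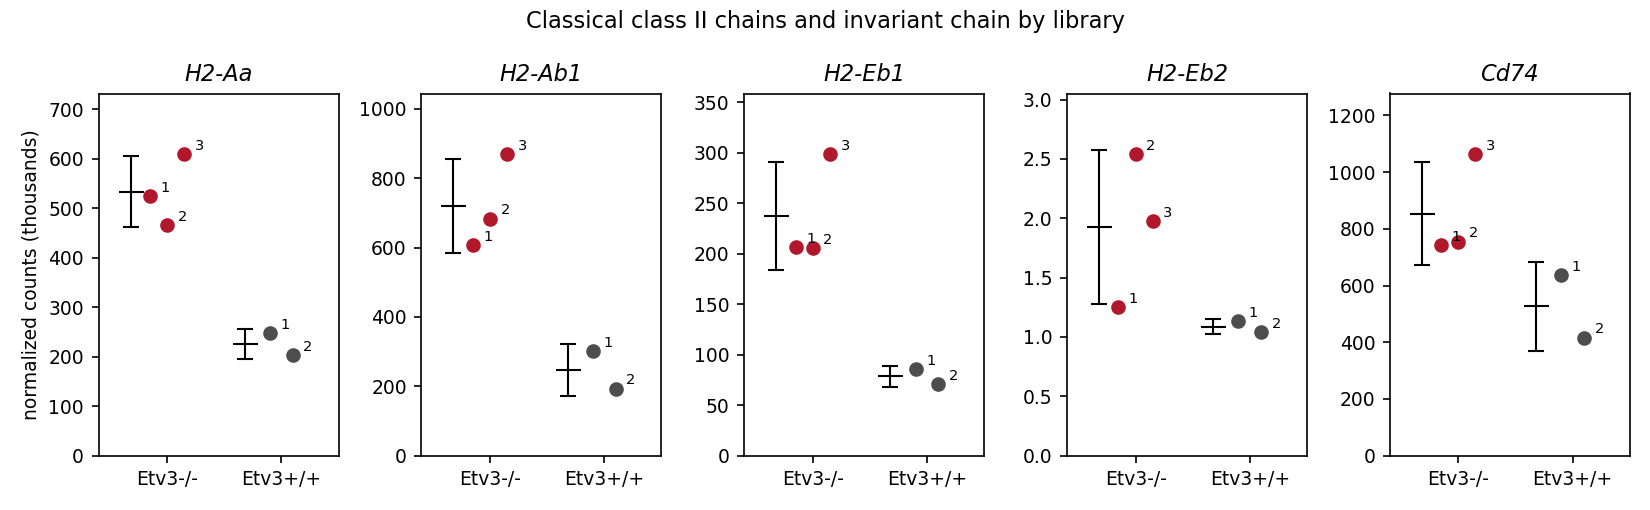
Normalized counts (linear axes from 0) of the 5 genes in each library, with Etv3-/- (n = 3) left of Etv3+/+ (n = 2). Points are libraries marked with their replicate number, and the black bar and whiskers beside them are the mean and SD. All Etv3-/- points lie above all Etv3+/+ points in each panel, with the narrowest gaps for H2-Eb2 and Cd74.

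H2-Aa, the I-A alpha chain gene (chromosome 17, 34282744 to 34287823, GRCm38, minus strand), had 525016, 466661 and 609975 normalized counts in Etv3-/- replicates 1, 2 and 3, against 247150 and 203489 in Etv3+/+ replicates 1 and 2. The lowest Etv3-/- library lay well above both Etv3+/+ libraries. Means were 533884 ± 72067 in Etv3-/- (SD, n = 3) and 225320 ± 30873 in Etv3+/+ (SD, n = 2). limma gave a log2 fold change of 1.24, with a 95% interval of 0.51 to 1.98 and adjusted p = 0.115.

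H2-Ab1, the partner beta chain gene (chromosome 17, 34257689 to 34269419, plus strand), had 606099, 683482 and 870214 normalized counts in Etv3-/- replicates 1, 2 and 3, against 300904 and 193338 in Etv3+/+ replicates 1 and 2. Its values spread more within each genotype than those of H2-Aa, and the genotypes again did not overlap. Means were 719932 ± 135778 in Etv3-/- and 247121 ± 76060 in Etv3+/+. The fitted difference was 1.56 on the log2 scale, with a 95% interval of 0.71 to 2.41 and a limma adjusted p = 0.0949.

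H2-Eb1, the I-E beta chain gene (chromosome 17, 34305867 to 34316674, plus strand), had 206288, 205909 and 298949 normalized counts in Etv3-/- replicates 1, 2 and 3, against 86125 and 70848 in Etv3+/+ replicates 1 and 2. Every Etv3-/- library held more than both Etv3+/+ libraries summed. Means were 237048 ± 53608 in Etv3-/- and 78486 ± 10802 in Etv3+/+. The log2 fold change reached 1.58, with a 95% interval of 0.91 to 2.25 and a limma adjusted p = 0.0542, and edgeR on recovered reads gave 1.66 with adjusted p = 0.0418. An annotated antisense gene overlaps H2-Eb1, so its reads cannot be told apart from antisense reads where strand was not used in counting.

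Transcripts of the I-E alpha chain gene were near absent. H2-Ea, annotated in RefSeq as a transcribed pseudogene, had 27, 0 and 0 recovered reads in Etv3-/- replicates 1, 2 and 3, against 1 and 0 in Etv3+/+ replicates 1 and 2. H2-Eb1 had 166269 to 340918 recovered reads in Etv3-/- and 92409 and 82791 in Etv3+/+. H2-Ea is known as inactive in mice of the b haplotype, and the haplotype of these mice is not given in the sources used here.

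H2-Eb2, the minor beta chain gene next to H2-Eb1 (chromosome 17, 34325665 to 34341412, plus strand), had 1251, 2542 and 1977 normalized counts in Etv3-/- replicates 1, 2 and 3, against 1131 and 1044 in Etv3+/+ replicates 1 and 2. Etv3-/- replicate 1 lay close to the Etv3+/+ libraries, which were themselves close together. Means were 1924 ± 647 in Etv3-/- and 1088 ± 61.8 in Etv3+/+. On the log2 scale the difference was 0.76, its 95% interval was -0.016 to 1.54 and limma's adjusted p = 0.287. It was 1.04 without Etv3-/- replicate 1 and 0.53 without Etv3-/- replicate 2. Where reads of H2-Eb1 and H2-Eb2 map to both, the lower gene is the more uncertain.

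Cd74, the invariant chain gene (chromosome 18, 60803848 to 60812652, plus strand), had 741848, 755388 and 1064652 normalized counts in Etv3-/- replicates 1, 2 and 3, against 637781 and 416476 in Etv3+/+ replicates 1 and 2. Etv3-/- replicates 1 and 2 were nearly equal and stood only slightly above Etv3+/+ replicate 1. Means were 853963 ± 182588 in Etv3-/- and 527129 ± 156486 in Etv3+/+. Its log2 fold change of 0.71 had a 95% interval of -0.21 to 1.62, with a limma adjusted p = 0.394. It was 1.02 without Etv3+/+ replicate 1 and 0.40 without Etv3+/+ replicate 2. A microRNA gene, Mir5107, lies within Cd74 on the same strand.

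The exact permutation test over the 10 splits of 5 libraries, two-sided, gave p = 0.1 for H2-Aa, H2-Ab1, H2-Eb1 and Cd74 and p = 0.2 for H2-Eb2, where 0.1 is the smallest possible. In bulk libraries a different share of cells of a type and a different amount of RNA per cell cannot be told apart. Separate animals or cultures behind the replicates are not stated in the labels, and all p-values measure the spread between these libraries, which may be technical.

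Cd74 had the highest normalized count of all 27678 genes in Etv3-/- replicates 1 and 3 and in Etv3+/+ replicate 1, and ranked 2 in Etv3-/- replicate 2 and 7 in Etv3+/+ replicate 2. H2-Ab1 ranked 2, 3 and 3 in Etv3-/- replicates 1, 2 and 3, against 7 and 20 in Etv3+/+ replicates 1 and 2. H2-Aa ranked 5, 7 and 5 in Etv3-/-, against 12 and 18 in Etv3+/+. H2-Eb1 stood at ranks 14, 13 and 8 in Etv3-/-, against 48 and 74 in Etv3+/+. H2-Eb2 stood far below the other members, at ranks 6177, 4120 and 4632 in Etv3-/- and 6561 and 6777 in Etv3+/+. A rank by count also reflects transcript length. Ranked per kb of transcript, H2-Eb1 was at 16, 16 and 10 in Etv3-/- and at 39 and 65 in Etv3+/+, out of 26957 genes with a known length. On that scale Cd74 was at 3, 4 and 2 in Etv3-/- and at 3 and 9 in Etv3+/+, and led no library.

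**Figure D2:**
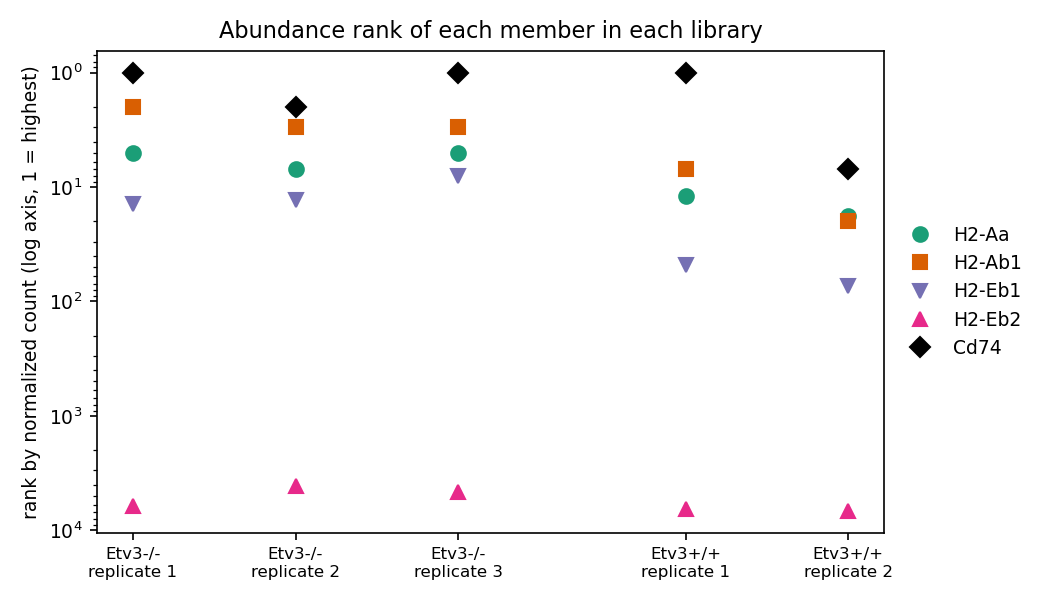
Rank of each of the 5 genes among 27678 genes by normalized count (log axis, 1 at the top) in the 3 Etv3-/- libraries, left, and the 2 Etv3+/+ libraries, right. H2-Ab1, H2-Aa and H2-Eb1 stand nearer the top in all Etv3-/- libraries, while Cd74 holds rank 1 in libraries of both genotypes.

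Genes among the 10 highest counts of all 5 libraries were Cd74, Ccl22, Cst3 and Tmsb4x. Ccl22, a chemokine gene of dendritic cells, ranked 8, 5 and 4 in Etv3-/- and 6 and 8 in Etv3+/+. Cst3, which encodes the protease inhibitor cystatin C, ranked 4, 4 and 2 in Etv3-/- and 4 and 9 in Etv3+/+. Tmsb4x, which encodes the actin-binding thymosin beta 4, ranked 6 in each Etv3-/- library and 2 in each Etv3+/+ library. None of these 4 genes passed the limma test (adjusted p = 0.394 to 0.708). Ranks 1, 3, 4 and 6 of Etv3+/+ replicate 2 were mitochondrial transcripts, which stand above Cd74 there.

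The 5 members together made up 4.01%, 3.97% and 5.44% of the summed values of Etv3-/- replicates 1, 2 and 3, against 2.42% and 1.52% in Etv3+/+ replicates 1 and 2. Every Etv3-/- library gave a larger share to these genes than either Etv3+/+ library. Means were 4.47% ± 0.836 in Etv3-/- (SD, n = 3) and 1.97% ± 0.64 in Etv3+/+ (SD, n = 2), a difference of 2.50 percentage points (two-sided exact permutation p = 0.1, the smallest possible). With mitochondrial genes left out of the total, the difference was 2.52 percentage points.

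Levels between members were compared as normalized counts per kb of the longest GENCODE M21 transcript paired with a curated RefSeq entry. In Etv3-/-, Cd74 had 526133 to 755072 per kb, H2-Ab1 500082 to 717999, H2-Aa 413707 to 540758, H2-Eb1 123372 to 179119 and H2-Eb2 369 to 750. In Etv3+/+, Cd74 had 295373 and 452327 per kb, H2-Ab1 159520 and 248270, H2-Aa 180398 and 219104, H2-Eb1 42449 and 51603 and H2-Eb2 308 and 334. Ranges of Cd74 and H2-Ab1 overlapped in Etv3-/- but not in Etv3+/+, and ranges of H2-Ab1 and H2-Aa overlapped in both genotypes. H2-Eb1 and H2-Eb2 stood apart from their neighbours in both. H2-Ab1 was above H2-Aa per kb in 3 of 3 Etv3-/- libraries and in 1 of 2 Etv3+/+ libraries.

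Ratios within a library do not depend on scaling between libraries, and 4 were compared, with p-values adjusted over the 4. They were not corrected for GC content, whose trend differed between libraries. The normalized count of Cd74 relative to the sum of H2-Aa, H2-Ab1 and H2-Eb1 was 0.555, 0.557 and 0.598 in Etv3-/- replicates 1, 2 and 3, against 1.01 and 0.891 in Etv3+/+ replicates 1 and 2. These ratios formed a narrow band in Etv3-/-, below both Etv3+/+ values. The log2 ratio averaged -0.81 ± 0.061 in Etv3-/- (SD, n = 3) and -0.08 ± 0.12 in Etv3+/+ (SD, n = 2), a difference of -0.73 (two-sided exact permutation p = 0.1, the smallest possible, adjusted p = 0.4). It was -0.82 to -0.64 with each library left out in turn.

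**Figure D3:**
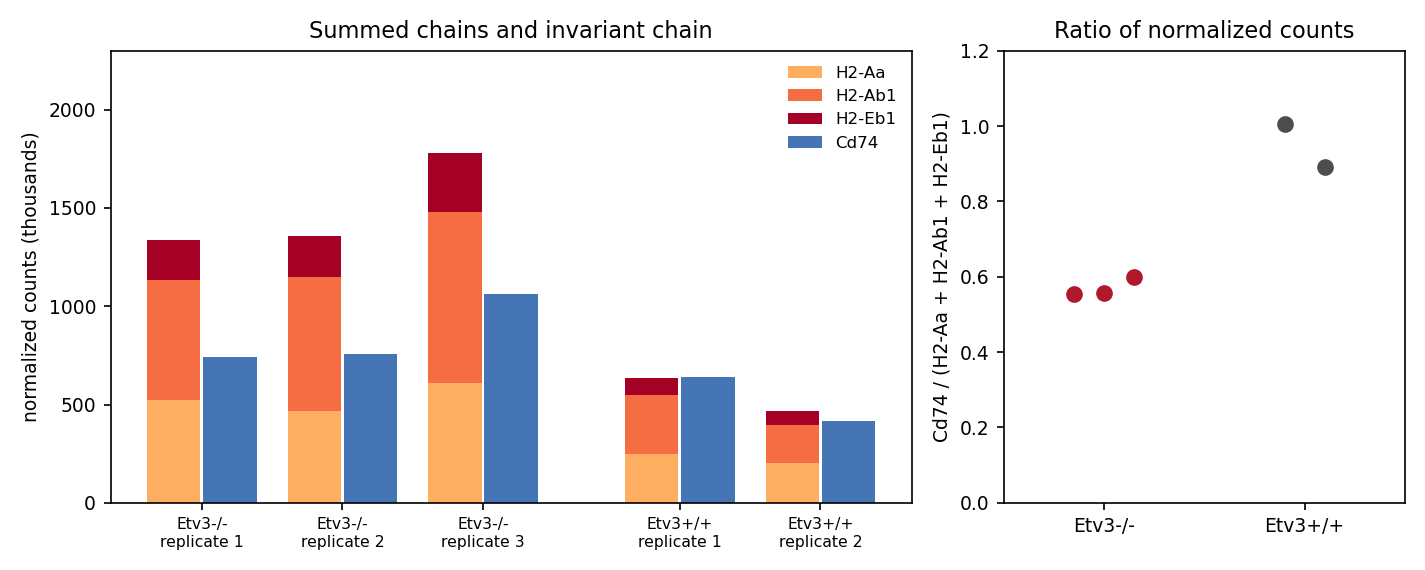
Left, stacked normalized counts of H2-Aa, H2-Ab1 and H2-Eb1 beside those of Cd74 in the 3 Etv3-/- and 2 Etv3+/+ libraries. Right, the ratio of Cd74 to that sum, 0.555 to 0.598 in Etv3-/- and 0.891 and 1.01 in Etv3+/+.

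The other ratios compared the chains among themselves. H2-Ab1 relative to H2-Aa was 1.15, 1.46 and 1.43 in Etv3-/- replicates 1, 2 and 3, against 1.22 and 0.95 in Etv3+/+ replicates 1 and 2, and the genotypes overlapped (log2 difference 0.32, two-sided exact permutation p = 0.3, adjusted p = 0.4). H2-Eb1 relative to H2-Ab1 was 0.34, 0.301 and 0.344 in Etv3-/-, against 0.286 and 0.366 in Etv3+/+ (log2 difference 0.02, exact permutation p = 1). These values lay farther apart between the 2 Etv3+/+ libraries than among the Etv3-/- libraries. H2-Eb2 relative to H2-Eb1 was 0.00606, 0.0123 and 0.00661 in Etv3-/-, against 0.0131 and 0.0147 in Etv3+/+. The log2 difference was -0.81 (exact permutation p = 0.2, adjusted p = 0.4), and Etv3-/- replicate 2 lay next to the Etv3+/+ values. A correction for GC content and length brought H2-Eb2 and H2-Eb1 closer, with log2 fold changes of 1.15 and 1.39, against 0.76 and 1.58 without it.

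Across the 5 libraries, H2-Ab1, H2-Eb1, H2-Aa and Cd74 followed their common mean log2 level with Pearson r of 0.996, 0.994, 0.990 and 0.947, and H2-Eb2, which is not in that mean, with 0.753. Among 11362 other genes of mean 50 or more, those most like that mean included Dhx34, Abi3, Col4a2 and Rps6ka1 (r = 0.998 to 1.00, n = 5 libraries). Dhx34 encodes an RNA helicase, Abi3 an adaptor of actin regulation, Col4a2 a collagen chain and Rps6ka1 a kinase downstream of ERK. For the genes that make up the mean, r is raised by construction. Genes outside it also followed it, with r of 0.989 for Ciita, 0.985 for Cd79b and 0.981 for H2-DMa and H2-Oa. B2m, a class I gene, had -0.616. The points share genotype, depth and library quality, and the correlations describe these libraries alone.

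Other genes of the pathway were read from 4 lists with 31 tested genes, chosen with earlier results of these data known. Of these, 5 rose and 1 fell, against 0.876% and 0.319% of all genes tested. H2-DMa, H2-DMb2, H2-Oa and H2-Ob, chains of the peptide-loading catalyst H2-DM and its modulator H2-O, rose among 5 accessory chain genes tested, whose median log2 fold change was 1.84. H2-Ob had the widest difference, with 12877 to 16014 normalized counts in Etv3-/- and 1130 and 2034 in Etv3+/+, and rose by 3.21 on the log2 scale (limma adjusted p = 0.00765). H2-DMa rose by 1.89, H2-Oa by 1.84 and H2-DMb2 by 1.49 (limma adjusted p = 0.0255, 0.0135 and 0.0455). H2-DMb1 had a log2 fold change of 0.90 and did not pass (limma adjusted p = 0.102), and reads of the near-identical H2-DMb1 and H2-DMb2 are uncertain between them. Ciita and Prdm1 are the called genes of the transcription list.

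Ciita, the class II transactivator gene, had 13344, 13343 and 15160 normalized counts in Etv3-/- replicates 1, 2 and 3, against 6591 and 4682 in Etv3+/+ replicates 1 and 2. It rose by 1.33 on the log2 scale (95% interval 0.82 to 1.83, limma adjusted p = 0.038). Prdm1, which encodes BLIMP-1, a known repressor of Ciita, had 858, 640 and 853 normalized counts in Etv3-/-, against 2765 and 2686 in Etv3+/+. It fell by 1.81 on the log2 scale (limma adjusted p = 0.028). The DNA-binding partners of CIITA did not pass, with log2 fold changes of 0.11 for Rfx5, -0.10 for Rfxap, 0.45 for Rfxank and -0.19 to 0.19 for Nfya, Nfyb and Nfyc. Creb1, at a mean of 2619 in Etv3-/- and 6371 in Etv3+/+, did not pass either (limma adjusted p = 0.164). The median log2 fold change of the 9 transcription genes was -0.10.

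Of 9 tested genes of invariant chain cleavage and antigen processing, 0 passed limma at the adjusted threshold, and their median log2 fold change was 0.27. An unadjusted p under 0.05 was found for 2 of the 9, Lgmn and Ifi30, against 18.0% of all genes tested, and their directions were opposite. Ctss, the protease that removes the last part of the invariant chain in dendritic cells, had 126337, 140019 and 110670 normalized counts in Etv3-/- replicates 1, 2 and 3, against 123300 and 196836 in Etv3+/+ replicates 1 and 2. Cst3, which inhibits such proteases, averaged 677975 ± 181903 in Etv3-/- and 433402 ± 68942 in Etv3+/+ (limma adjusted p = 0.428). Lgmn, an asparaginyl endopeptidase of endosomes that like Ifi30 was singled out after its values were seen, had 9834, 6741 and 7464 in Etv3-/-, against 27979 and 17357 in Etv3+/+ (log2 fold change -1.48, limma adjusted p = 0.055). Ifi30, which encodes a lysosomal thiol reductase, had 31952, 25863 and 27751 in Etv3-/-, against 15616 and 18765 in Etv3+/+ (log2 fold change 0.73, limma adjusted p = 0.139). Of 8 tested genes of class II turnover and invariant chain partners, 0 passed limma and 3 had an unadjusted p under 0.05, against 18.0% of all genes tested, with a median log2 fold change of -0.06. The 3 were Mif, Cxcr4 and Marchf8, with log2 fold changes of 1.39, -1.93 and -0.83 (limma adjusted p = 0.121, 0.0806 and 0.253). Cd83, which protects surface class II from the ubiquitin ligase MARCH1, averaged 195098 ± 15198 in Etv3-/- and 143799 ± 35365 in Etv3+/+ (limma adjusted p = 0.431). Marchf1, the gene of MARCH1, had a log2 fold change of 0.79 (limma adjusted p = 0.554). Ubb, a ubiquitin gene, averaged 57218 in Etv3-/- and 58165 in Etv3+/+.

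**Figure D4:**
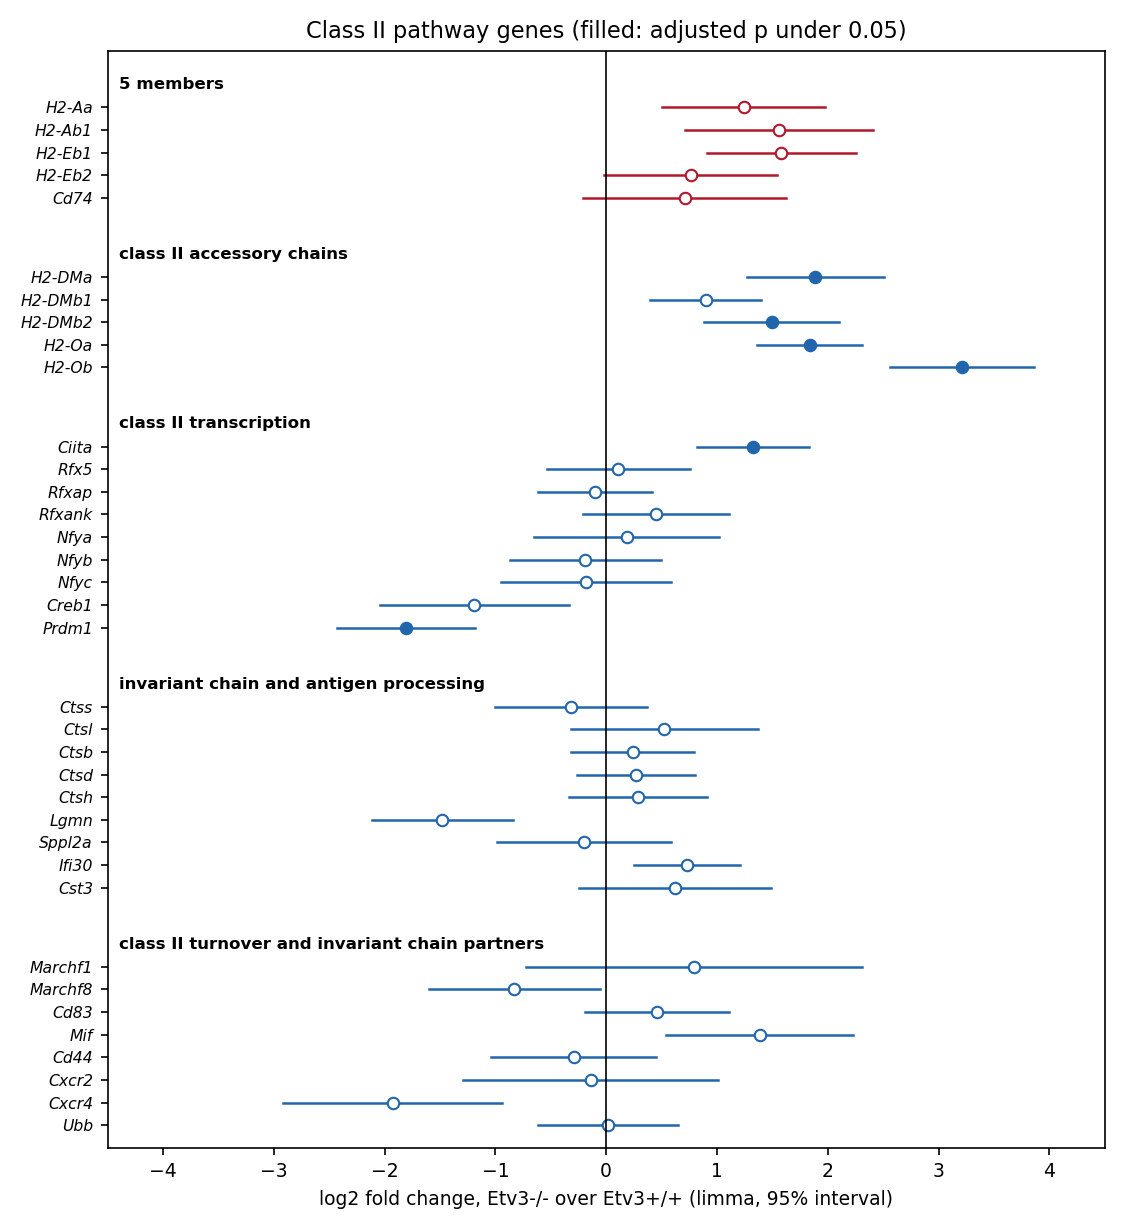
Log2 fold change, Etv3-/- over Etv3+/+, with its 95% limma interval for the 5 members (red) and the tested genes of 4 pathway lists (blue). Filled points have an adjusted p under 0.05, namely H2-DMa, H2-DMb2, H2-Oa, H2-Ob and Ciita above 0 and Prdm1 below 0. The members' points are open, and the intervals of H2-Aa, H2-Ab1 and H2-Eb1 lie above 0.

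The calls rest on few libraries. The 5 pathway genes called higher became 0, 0 and 1 without Etv3-/- replicate 1, 2 or 3, and 4 and 2 without Etv3+/+ replicate 1 or 2. The 1 called lower became 0 in each of these fits. Over all genes the 121 higher and 44 lower became 0 and 0, 2 and 0, and 7 and 3 without Etv3-/- replicate 1, 2 or 3, and 50 and 4, and 73 and 7 without Etv3+/+ replicate 1 or 2. Where limma called 0, 1885 genes had an unadjusted p under 0.05. No member passed in any of these fits, and the log2 fold change was 1.10 to 1.38 for H2-Aa, 1.24 to 1.88 for H2-Ab1 and 1.40 to 1.72 for H2-Eb1. The members passed under some other settings, H2-Eb1 in 8 of 20 alternatives, H2-Aa and H2-Ab1 in 3 of 20 each and H2-Eb2 and Cd74 in 0 of 20. The settings under which a member passed called 114 (edgeR) to 644 (DESeq2) genes higher over all genes tested, against 121 in the main fit. After a correction for GC content and length, log2 fold changes were 1.09 for H2-Aa, 1.36 for H2-Ab1 and 1.39 for H2-Eb1 (limma adjusted p = 0.0381, 0.0212 and 0.0138). H2-Eb2 and Cd74 did not pass after it, at 1.15 and 0.50, against 0.76 and 0.71 without it. H2-Eb2 thus stood above H2-Aa after the correction and below it before.

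Transcripts of the dendritic cell gate were measured in every library. Itgax, which encodes CD11c, had 10505 to 16076 normalized counts in Etv3-/- and 9808 and 10549 in Etv3+/+. Itgam, which encodes CD11b, had 1637 to 1855 in Etv3-/- and 726 and 709 in Etv3+/+, without overlap (log2 fold change 1.28, limma adjusted p = 0.0635). The dendritic cell genes Zbtb46 and Flt3 were present in all 5 libraries, Cd209a had 0 to 34.7 in Etv3-/- and 0 in both Etv3+/+ libraries, and the 8 genes of the list summed to 254197 to 335716 in Etv3-/- and 284627 and 317359 in Etv3+/+. Ccr7, a chemokine receptor gene, made up most of that sum, with 213571 to 290394 in Etv3-/- and 282725 and 246321 in Etv3+/+. Of these 8 genes, 2 were higher in Etv3-/- without overlap, against 16.7% of all genes tested. In limma 0 passed and 1 had an unadjusted p under 0.05, against 18.0% of all genes tested. The gene with that p was Kmo, which encodes an enzyme of tryptophan breakdown and had 902 to 1650 in Etv3-/- and 136 and 0 in Etv3+/+ (limma adjusted p = 0.116). Csf1r, which encodes the CD115 that the gate excludes, had 2403 to 3493 in Etv3-/- and 1018 and 1348 in Etv3+/+ (limma adjusted p = 0.0683). B2m, the class I light chain gene, had 142705 to 171694 in Etv3-/- and 137232 and 271212 in Etv3+/+. Of the 3 class I genes followed, B2m, H2-K1 and H2-D1, 0 passed limma and 0 had an unadjusted p under 0.05, with a median log2 fold change of 0.31. The genotypes did not overlap, with Etv3-/- higher, for 2 of these 3, against 16.7% of all genes tested. They were H2-K1 and H2-D1, whose log2 fold changes were 0.31 and 0.42.

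Markers of other cells that can carry class II were read in the same libraries. On the B cell list, 0 of 10 genes passed limma, 6 had an unadjusted p under 0.05, against 18.0% of all genes tested, and 7 of 10 were higher in Etv3-/- without overlap, against 16.7%. Its summed normalized counts were 4674 to 7556 in Etv3-/-, against 2131 and 2514 in Etv3+/+. Pax5, which encodes a B cell transcription factor, was at 0 in Etv3-/- replicate 3 and Etv3+/+ replicate 1. On the macrophage and monocyte list, 9 of 12 genes were higher without overlap, against 16.7% of all genes tested, and 3 of 12 rose, against 0.876%. These encode the chains of complement C1q (C1qa, C1qb, C1qc), with log2 fold changes of 2.10 to 3.30 (limma adjusted p = 0.0155 to 0.0383). Its sum was 57011 to 75038 in Etv3-/-, against 33780 and 34528 in Etv3+/+. Fcgr1, a macrophage receptor gene, was at 0 to 30.7 in Etv3-/- and 0 in both Etv3+/+ libraries. Ly6c2 went against the rest of this list, with a log2 fold change of -0.64 (limma adjusted p = 0.510). On the neutrophil list 0 of 6 genes passed limma and 0 had an unadjusted p under 0.05, and its sum was 9829 to 53092 in Etv3-/- and 29894 and 45674 in Etv3+/+. The part of these cells in the members' values was not tested.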

How the data were processed

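RNA-seq of sorted dendritic cells was analysed from 1 deposited table with 3 Etv3-/- and 2 Etv3+/+ libraries. Per the labels' protocols, RNA of up to 60000 cells was made into cDNA with a low-input SMART-Seq kit, whose reads carry no count of separate molecules. The authors deposited normalized counts, a signal made of read counts scaled by 1 factor a library. The submitters' processing notes name the build mm10 and the tools Trimmomatic 0.36, STAR 2.7.3a, DESeq2 1.26.0, featureCounts and Subread 1.6.3. Annotation, strand setting and filters were not stated there.

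Division by the smallest step gave values within 0.1 of a whole read for 100% of values in each library. Genes that reached 10 in 2 or more libraries were tested with limma 3.58.1 in R 4.3.3 (trend, genotype as the single term). The added 1 shrinks fold changes of low genes, but where a library was at 0 the fitted fold could exceed the ratio of means. For Kmo the fitted fold was 107 and the ratio of means 19.0. edgeR 4.0.16, run on the recovered reads, called 158 genes, of which 151 were among limma's 165. DESeq2 1.42.0 on these reads, other scalings, filters and pseudocounts, a replicate block and a local regression (span 0.3) on transcript GC content and length were alternatives. The omission of Etv3+/+ replicate 2 and Etv3-/- replicate 3 together was added after seeing the data. Scripts were tested on simulated data. For GC content and length, GENCODE M21 transcripts of that same assembly were matched by symbol, which covered 98.5% of tested genes. Figures were drawn with matplotlib 3.10.9.

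The members, lists and tests were chosen with earlier results of these data known. Named genes were the members, list genes past the threshold, the 2 of highest mean in each list, genes among the 10 highest in all libraries, and the 5 most like the members' mean. Not every gene that this rule names is reported here. Further list genes were picked after their values were seen.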

Additional observations from a re-analysis of the deposited data

How the results depend on the processing

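The 5 members were refitted under 20 alternatives, and their log2 fold change was above 0 in each: 1.00 to 1.38 for H2-Aa, 1.10 to 1.88 for H2-Ab1, 1.259 to 1.82 for H2-Eb1, 0.53 to 1.15 for H2-Eb2 and 0.23 to 1.02 for Cd74. The genotypes of each member do not overlap, so this sign was fixed when libraries were left out. H2-Eb1 passed with a pseudocount of 5 (1.58), a filter of 50 (1.58), quantile scaling (1.82), per-million scaling (1.66), robust limma (1.58), edgeR (1.66), DESeq2 (1.63) and the GC and length correction (1.39). H2-Aa and H2-Ab1 passed with robust limma (1.24 and 1.56), DESeq2 (1.28 and 1.58) and the GC and length correction (1.09 and 1.36). Genes higher over all genes tested were 144 with the pseudocount of 5, 176 with quantile scaling and 153 with per-million scaling. They were 126 with robust limma and 114 with edgeR, against 121 in the main fit. With the filter of 50, 150 of 12130 genes were higher. With the replicate block, which leaves Etv3-/- replicate 3 out of the difference, members did not pass (1.14, 1.42, 1.40, 0.71 and 0.54 for H2-Aa, H2-Ab1, H2-Eb1, H2-Eb2 and Cd74). Over all genes, 118 were lower with the block. Libraries that share a number correlated in their deviations at -0.034 and 0.039. Deviations of both Etv3+/+ libraries from their mean mirror each other exactly, so these values cannot decide whether the numbers mark pairs. The main fit did not use the numbers as pairs.

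Genes higher and lower were 244 and 114 with the GC and length correction, 644 and 544 with DESeq2 and 6 and 1 without Etv3+/+ replicate 2 and Etv3-/- replicate 3. With limma trend=FALSE 44 were higher, and with a pseudocount of 5, 70 were lower. Leaving out each library gave 0 to 73 higher and 0 to 7 lower; where this left 1 Etv3+/+ library, it was assumed to vary like the others. Pathway genes higher were 3 without a filter, 8 with DESeq2, 0 with trend=FALSE, 1 without both libraries and 0 to 4 with a library left out. Pathway genes lower were 2 with a pseudocount of 5, a filter of 50, the block or the correction, 4 with DESeq2, 0 with trend=FALSE and without both libraries, and 0 to 0 with a library left out. Scaling moved the median of all genes by at most 0.08. Directions of uncalled genes turned for Ubb (-0.0024 with sample weights, -0.063 with the block, -0.21 with the correction, -0.43 without both libraries and -0.35 to 0.38 with a library left out) and Ctss (0.11 without both, -0.65 to 0.021 with a library left out). The log2 ratio of H2-Eb1 to H2-Ab1 ranged from -0.16 to 0.20 when a library was left out, and the difference of the members' summed share from 2.02 to 2.96 percentage points. The cause of these shifts was not tested. Every member had 1163 or more recovered reads in each library.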

Other observations

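Further genes of the lists were singled out after their values were seen, and none passed limma at the adjusted threshold. Mif, a cytokine gene whose product binds the invariant chain at the cell surface, had 17615, 7261 and 8767 normalized counts in Etv3-/- replicates 1, 2 and 3, against 3724 and 4243 in Etv3+/+ replicates 1 and 2 (limma adjusted p = 0.121). Cxcr4, which encodes a chemokine receptor that also binds MIF, had 184, 149 and 205 in Etv3-/-, against 583 and 790 in Etv3+/+ (limma adjusted p = 0.0806). Il10, a cytokine gene known to lower surface class II, had 17 recovered reads in Etv3-/- replicate 2 and 0 in the other libraries, including both of Etv3+/+.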
